A study of Mus musculus with 6 samples.

Results

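The genes described here are 95 orphan and adhesion G-protein coupled receptors, taken from the 23845 genes of a deposited RNA-seq count table of mouse intestinal epithelial cells. They were chosen by symbol alone, as every gene named Gpr with a number, every latrophilin (Lphn), every brain angiogenesis inhibitor (Bai) and every flamingo cadherin (Celsr), leaving out the nutrient receptors Gpr119, Gpr35 and Gpr142. Of the 95, 25 are adhesion receptors and 70 are other receptors. RNA was measured in 6 libraries, 2 in each of 3 groups. EYFP cells came from Neurog3+/+EYFP mice, which have 2 Neurog3 alleles and whose strain the labels give as mixed C57BL6 and CD1. EGFP cells came from Neurog3+/-EGFP mice, which have 1 Neurog3 allele and whose strain is C57BL6. Wild-type epithelium came from C57BL6 mice. The series' design text says that cells expressing Neurog3 were sorted from both reporter lines. The labels do not describe the wild-type epithelium as sorted, and its titles point to duodenum. The element that drives each reporter, the gut segment and gates of the sorted cells, the age of the mice and whether replicates came from separate animals are not stated by the labels or the design text. The p-values therefore measure only the spread between these libraries, which may be technical. In these bulk samples, fewer cells of a type and less RNA per cell cannot be told apart.

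Adhesion receptors carry a long extracellular part that binds neighbouring cells or matrix and is cut from the membrane part by the receptor's own autoproteolysis domain. Once the stub of that cut is exposed, it can act as a tethered agonist. Flamingo cadherins bind each other across cell borders and set planar polarity with Frizzled and Vangl proteins, and latrophilins bind teneurins and FLRT proteins on the facing cell. Orphan receptors lack an agreed natural ligand, although several genes that kept a Gpr symbol have since been paired with protons, lysolipids or oxysterols. Enteroendocrine cells, the hormone-secreting cells of the gut epithelium, arise from progenitors that express Neurog3 and read luminal and blood signals through receptors of this superfamily.

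Total estimated counts ran from 7938358 to 20589683 per library. Neurog3 itself was at 563 and 348 CPM (counts scaled to a common library total) in EYFP cells, 119 and 179 CPM in EGFP cells, and 5.99 and 6.39 CPM in wild-type epithelium. It was higher in EYFP than in EGFP cells (log2 fold change 1.61 ± 0.28 SE, edgeR adjusted p = 0.0049). The epithelial gene Vil1 was at 629 and 602 CPM in EYFP cells, 683 and 798 CPM in EGFP cells, and 2371 and 4084 CPM in wild-type epithelium. The summed level of 10 enteroendocrine markers was 60688 and 45947 CPM in EYFP cells, 9111 and 13674 CPM in EGFP cells, and 516 and 585 CPM in wild-type epithelium. Sex-linked transcripts also divided the libraries, with Xist at 0.606 and 2.38 CPM in EYFP cells, 966 and 969 CPM in EGFP cells, and 1.15 and 726 CPM in wild-type epithelium. Neurog3 allele number, reporter, strain and sex-linked transcripts differ together between EYFP and EGFP cells, and cannot be told apart here.

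The receptors took a similar small share of the RNA in every group. Their summed level was 963 and 970 CPM in EYFP cells, 915 and 939 CPM in EGFP cells, and 1047 and 1177 CPM in wild-type epithelium. Both libraries reached 1 CPM for 32 members in EYFP cells, 32 in EGFP cells and 34 in wild-type epithelium, and 10 CPM for 19, 17 and 15. No read was counted in any library for 12 members, among them Gpr25, Gpr26, Gpr33, Gpr37, Gpr45, Gpr83, Gpr101, Gpr139, Gpr143 and Gpr176. A filter on low counts left 49 members for testing, 17 adhesion and 32 other. The 46 members that were not tested had at most 43 counts over the 6 libraries together, and 34 of them had at least 1.

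Per kilobase of transcript, which allows levels to be compared between genes, the most abundant member was Gpr56 in EYFP cells and Gpr128 in EGFP cells and wild-type epithelium. In EYFP cells Gpr56 (Adgrg1, an adhesion receptor for collagen III and transglutaminase 2) was at 40.3 CPM per kb, followed by Gpr108 at 29.4 and Gpr137 at 24.3 CPM per kb. Gpr137 shares 517 exon bases with Bad on the opposite strand, which averaged 36.1 CPM in EYFP cells, 43.9 CPM in EGFP cells and 58.9 CPM in wild-type epithelium, and without a known strand setting their reads cannot be told apart there. In EGFP cells Gpr128 (Adgrg7, an adhesion receptor known from intestinal mucosa) was at 63.5 CPM per kb, followed by Gpr108 at 44.7 and Gpr56 at 28.7 CPM per kb. In wild-type epithelium Gpr128 was at 114 CPM per kb, with Gpr89 next at 25.5 and Gpr108 at 24.5 CPM per kb. Celsr3 averaged 143 CPM in EYFP cells, but with a transcript of 11547 bases that was 12.4 CPM per kb. Gpr56 per library was 167 and 124 CPM in EYFP cells, 111 and 96.6 CPM in EGFP cells, and 42.9 and 40 CPM in wild-type epithelium. These Gpr56 levels did not overlap between any pair of groups, but the step from EGFP to EYFP cells did not pass the test (log2 fold change 0.49 ± 0.17 SE, edgeR adjusted p = 0.061).

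**Figure D1:**
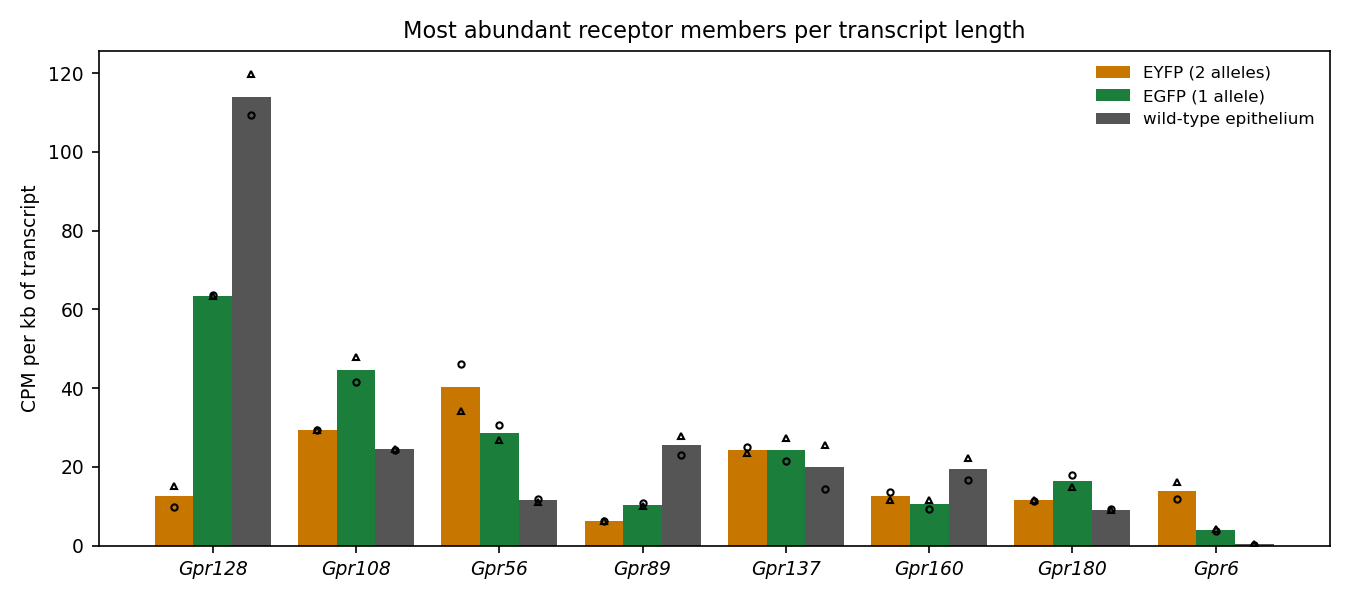
Mean level in CPM per kilobase of transcript (vertical axis, bars from 0) of 8 receptor members in EYFP cells, EGFP cells and wild-type epithelium, with the 2 libraries of each group as circles (replicate 1) and triangles (replicate 2). Gpr128 is at 12.5 in EYFP cells, 63.5 in EGFP cells and 114 in wild-type epithelium, while Gpr56 is at 40.3 in EYFP cells.

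Between EYFP and EGFP cells, the comparison of 2 Neurog3 alleles with 1, Celsr3, Celsr2, Lphn1, Lphn3 and Gpr6 were among the receptors that were higher, and Gpr128 and Gpr20 among those that were lower. Of the 49 members tested, 11 were higher in EYFP cells and 7 were lower at an adjusted p under 0.05. Over all 13935 genes tested the shares were 16.8% higher and 19.4% lower, against 22.4% and 14.3% of the tested members. The median log2 fold change was 0.49 over the tested members and 0.01 over all genes. Among adhesion receptors 5 of 17 were higher and 3 lower, and among the other receptors 6 of 32 were higher and 4 lower. Of the members called, Gpr20 passed the low-count filter through its EGFP counts alone, and Lphn3, Gpr75 and Gpr137b through their EYFP counts. The direction of these calls was thus largely fixed by the filter. In 21 tested members both EYFP libraries lay above both EGFP libraries, as they did in 37.3% of all genes tested, and in 11 both lay below, as in 36.9% of all genes. Without EYFP replicate 1, EGFP replicate 1 or EGFP replicate 2 the members higher came to 6, 5 and 6, and without EYFP replicate 1, EYFP replicate 2 or EGFP replicate 1 the members lower came to 3, 3 and 4. Under every alternative, including the loss of any single library, 8 of the 18 calls were kept: Celsr3, Lphn1, Gpr6, Gpr153, Gpr116, Gpr20, Gpr128 and Gpr55.

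**Figure D2:**
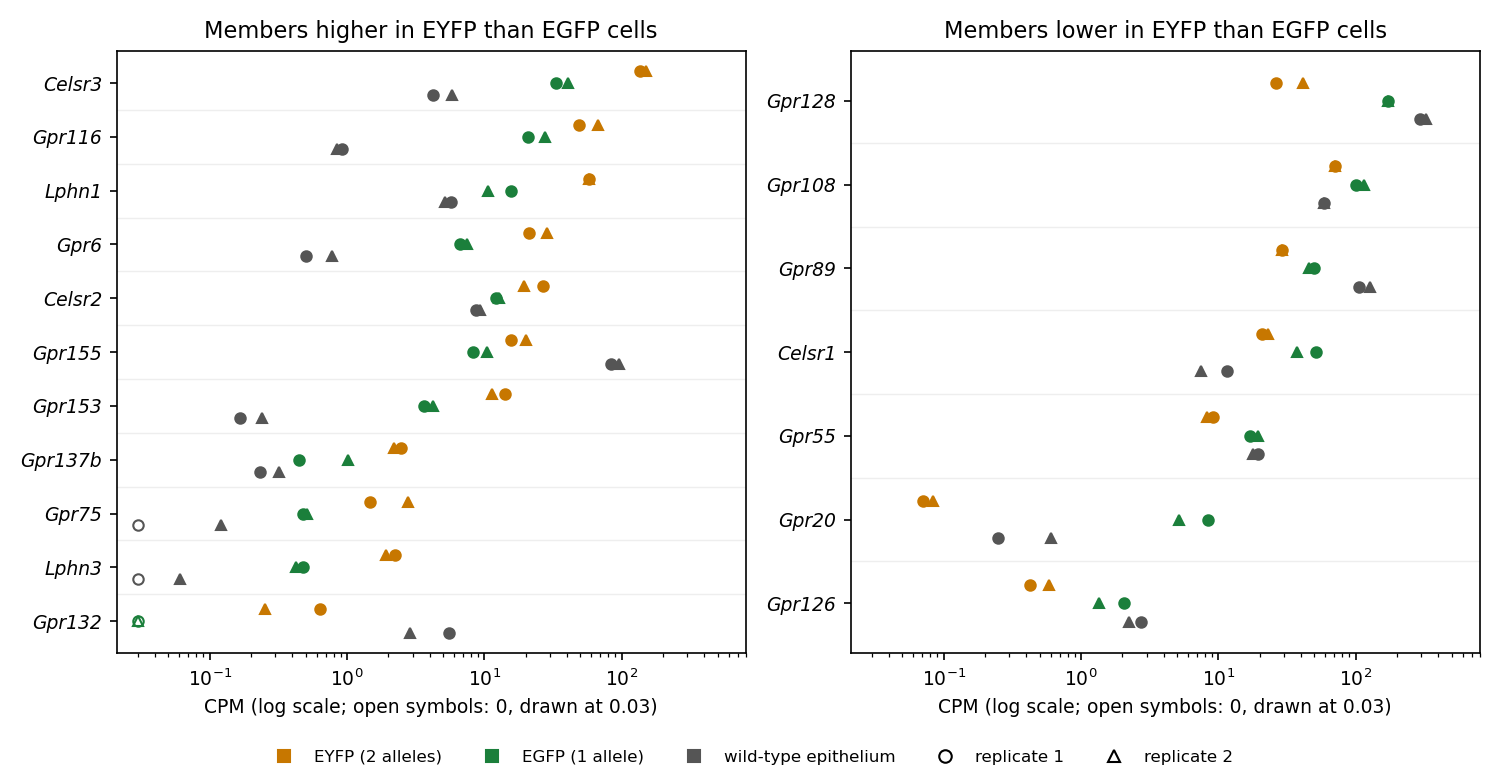
Level in CPM (horizontal log axis) of the members called between EYFP and EGFP cells, 11 higher (left) and 7 lower (right) in EYFP cells, in each of the 6 libraries (circles replicate 1, triangles replicate 2). Values of 0 are open symbols drawn at 0.03. Most members in the left panel have wild-type values at the low end, while Gpr155 and Gpr132 have theirs at the high end, and Gpr20 in the right panel is at 8.44 and 5.15 CPM in EGFP cells alone.

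The 3 flamingo cadherins did not move together. Celsr3, best known from axon guidance, was at 135 and 150 CPM in EYFP cells, 33 and 40.8 CPM in EGFP cells, and 4.24 and 5.79 CPM in wild-type epithelium. It was higher in EYFP than in EGFP cells by a log2 fold change of 1.95 ± 0.18 (SE, edgeR adjusted p = 0.00045), with groups far apart. Celsr2, which acts beside Celsr3 in neurons, was at 26.7 and 19.4 CPM in EYFP cells, 12.1 and 12.8 CPM in EGFP cells, and 8.74 and 9.34 CPM in wild-type epithelium. It was higher in EYFP cells by 0.89 ± 0.22 (log2, SE, edgeR adjusted p = 0.017). Celsr1, the flamingo cadherin of skin and other epithelia, was at 20.7 and 22.8 CPM in EYFP cells, 51.5 and 37.2 CPM in EGFP cells, and 11.6 and 7.48 CPM in wild-type epithelium. It ran the other way and was lower in EYFP than in EGFP cells (log2 fold change -1.03 ± 0.25 SE, edgeR adjusted p = 0.016), although both reporter groups lay above wild type. Per kilobase of transcript, Celsr3 led in EYFP cells, at 12.4 CPM per kb against 2.18 for Celsr2 and 2 for Celsr1. In EGFP cells Celsr1 was at 4.08 and Celsr3 at 3.2 CPM per kb. The Celsr2 call was lost without EYFP replicate 1 or either EGFP replicate (adjusted p from 0.065 to 0.13), and the Celsr1 call without either EYFP replicate or EGFP replicate 1 (adjusted p from 0.061 to 0.17).

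Promoters are printed for members higher in EYFP cells, at 10 CPM or more in both EYFP libraries, if the window held a searched motif. These were Celsr3, Celsr2 and Gpr153. Gpr128 is printed whatever its motifs, as the member with the largest fall among those with a window. The windows of Lphn1, Gpr6, Gpr116 and Gpr155 passed the call and level rule but held no motif, and are not printed. Sequences are RefSeq windows of mouse build GRCm38.p6, from 250 bases before to 50 bases after the annotated start, 5′ to 3′ on the strand of the gene. Capitals mark matches to 3 motifs that were searched on both strands: the E-boxes CAGATG and CAGCTG, of the kind bound by Neurog3 and related factors, and TTCAGCACC, the first part of the RE1 element bound by the repressor REST. Celsr3 lies at chr9:108825795-108826094 on the plus strand, Celsr2 at chr3:108415530-108415829 on the minus strand, Gpr153 at chr4:152273862-152274161 on the plus strand and Gpr128 at chr16:56795809-56796108 on the minus strand.
Celsr3: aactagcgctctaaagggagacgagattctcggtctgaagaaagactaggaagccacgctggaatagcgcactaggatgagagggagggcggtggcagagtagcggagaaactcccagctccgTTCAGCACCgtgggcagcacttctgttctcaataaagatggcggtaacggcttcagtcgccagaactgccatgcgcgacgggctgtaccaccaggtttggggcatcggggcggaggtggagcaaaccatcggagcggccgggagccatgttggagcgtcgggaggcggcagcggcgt
Celsr2: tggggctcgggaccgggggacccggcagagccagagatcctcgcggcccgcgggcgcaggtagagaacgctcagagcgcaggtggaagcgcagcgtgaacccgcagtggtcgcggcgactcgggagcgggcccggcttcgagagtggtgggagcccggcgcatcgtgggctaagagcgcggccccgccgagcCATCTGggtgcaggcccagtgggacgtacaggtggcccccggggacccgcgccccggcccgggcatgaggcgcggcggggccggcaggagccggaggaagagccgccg
Gpr153: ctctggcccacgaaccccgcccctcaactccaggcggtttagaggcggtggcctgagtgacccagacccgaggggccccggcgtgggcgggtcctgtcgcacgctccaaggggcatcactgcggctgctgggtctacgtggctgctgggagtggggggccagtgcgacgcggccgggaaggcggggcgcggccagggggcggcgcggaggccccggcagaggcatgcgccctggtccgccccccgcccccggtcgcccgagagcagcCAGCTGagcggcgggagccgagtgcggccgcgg
Gpr128: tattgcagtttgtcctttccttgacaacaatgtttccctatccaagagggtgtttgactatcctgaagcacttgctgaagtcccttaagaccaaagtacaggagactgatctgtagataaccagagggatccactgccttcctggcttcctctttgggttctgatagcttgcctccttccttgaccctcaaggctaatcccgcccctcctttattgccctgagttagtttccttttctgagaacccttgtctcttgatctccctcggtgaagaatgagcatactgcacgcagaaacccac
The Celsr3 window held TTCAGCACC, beginning 127 bases before the start. The Celsr2 window held CAGATG, read as CATCTG on the printed strand, 58 bases before the start. The printed Gpr153 window held CAGCTG, beginning 17 bases past the start. A second Gpr153 window, at chr4:152274112-152274411, belongs to another annotated start and is not printed. It held the same site, 233 bases before that start, so the position depends on the start chosen. The site is counted once for each window in the shares below. The Gpr128 window held none of the 3 motifs. As higher members were printed only with a motif, this contrast follows from the choice of windows. Members lower in EYFP cells also held motifs, CAGATG in Gpr55 and Gpr89 and CAGCTG in Gpr126 and Gpr89. CAGATG was in 14.3% of windows of members higher and 33.3% of those lower, and CAGCTG in 35.7% and 33.3%. The Celsr2 and printed Gpr153 windows were rich in G and C, at 76.3% and 77.3%, whereas Celsr3 was at 60.7% and Gpr128 at 48%. For the members as a whole, 67 of 95 had a window and 85 windows were found. CAGATG was in 16.5% of member windows and 17.2% of all 32851 windows, CAGCTG in 27.1% and 16.3%, and TTCAGCACC in 1 member window, against 0.371% of all windows. The median window of members higher in EYFP cells (14 windows of 10 genes) was 62.7% G and C, that of members lower (6 windows of 5 genes) 51.8%, and that of all windows 52.7%. The median was 60.5% over tested members and 58.7% over all members, so the members higher were near the members as a whole. A match describes letters in the window and was not tested for binding.

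Latrophilins 1 and 3 were higher in EYFP cells, and latrophilin 2 gave no call. Lphn1 (Adgrl1, at chr8:83900098-83941954), the receptor of the spider toxin alpha-latrotoxin, was at 57.7 and 57.4 CPM in EYFP cells, 15.5 and 10.6 CPM in EGFP cells, and 5.74 and 5.18 CPM in wild-type epithelium. Its log2 fold change between EYFP and EGFP cells was 2.14 ± 0.21 (SE, edgeR adjusted p = 0.00054). Lphn1 shares 215 exon bases with Gm10644 on the opposite strand. Lphn3, a synaptic adhesion receptor, shares 1126 exon bases with the antisense gene Gm16054 on the opposite strand, and the strand setting is not known. It was at 2.25 and 1.93 CPM in EYFP cells, 0.482 and 0.422 CPM in EGFP cells, and 0 and 0.0603 CPM in wild-type epithelium. Both EYFP libraries were above both EGFP libraries (log2 fold change 2.20 ± 0.59 SE, edgeR adjusted p = 0.023). That call was lost with the DESeq2 Wald test (adjusted p = 0.054) and without any EYFP or EGFP library (adjusted p from 0.077 to 0.14). Lphn2 stood at 33.7 and 26.4 CPM in EYFP cells, 22.7 and 25.5 CPM in EGFP cells, and 30 and 17.2 CPM in wild-type epithelium, with overlapping wild-type values and a log2 fold change of 0.32 ± 0.27 (SE) between EYFP and EGFP cells. Per kilobase of transcript, the leading latrophilin was Lphn1 in EYFP cells, at 7.03 CPM per kb against 5.38 for Lphn2 and 0.338 for Lphn3. In EGFP cells it was Lphn2, at 4.31 CPM per kb against 1.6 for Lphn1.

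Brain angiogenesis inhibitors, which bind C1q-like proteins and apoptotic cells, were low in all groups. Bai1, an engulfment receptor and the single member of the 3 that was tested, was at 0.141 and 0.168 CPM in EYFP cells, 0.362 and 0.507 CPM in EGFP cells, and 2.25 and 1.51 CPM in wild-type epithelium. It did not pass the test between EYFP and EGFP cells (log2 fold change -1.47 ± 0.76 SE, edgeR adjusted p = 0.17). Bai2 ran the other way in counts, with 26 in EYFP cells, 10 in EGFP cells and 0 in wild-type epithelium. Against a floor of 3 counts over the wild-type group, Bai2 was at least 9.5-fold higher in EYFP cells and at least 4.74-fold higher in EGFP cells than in wild-type epithelium. Those bounds were 5.51 and 2.75 without WT replicate 1, and 3.99 and 1.99 without WT replicate 2. Bai3 had 10 counts in EYFP cells, 1 in EGFP cells and 0 in wild-type epithelium. Floors and intervals of this kind cover counting error only.

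**Figure D3:**
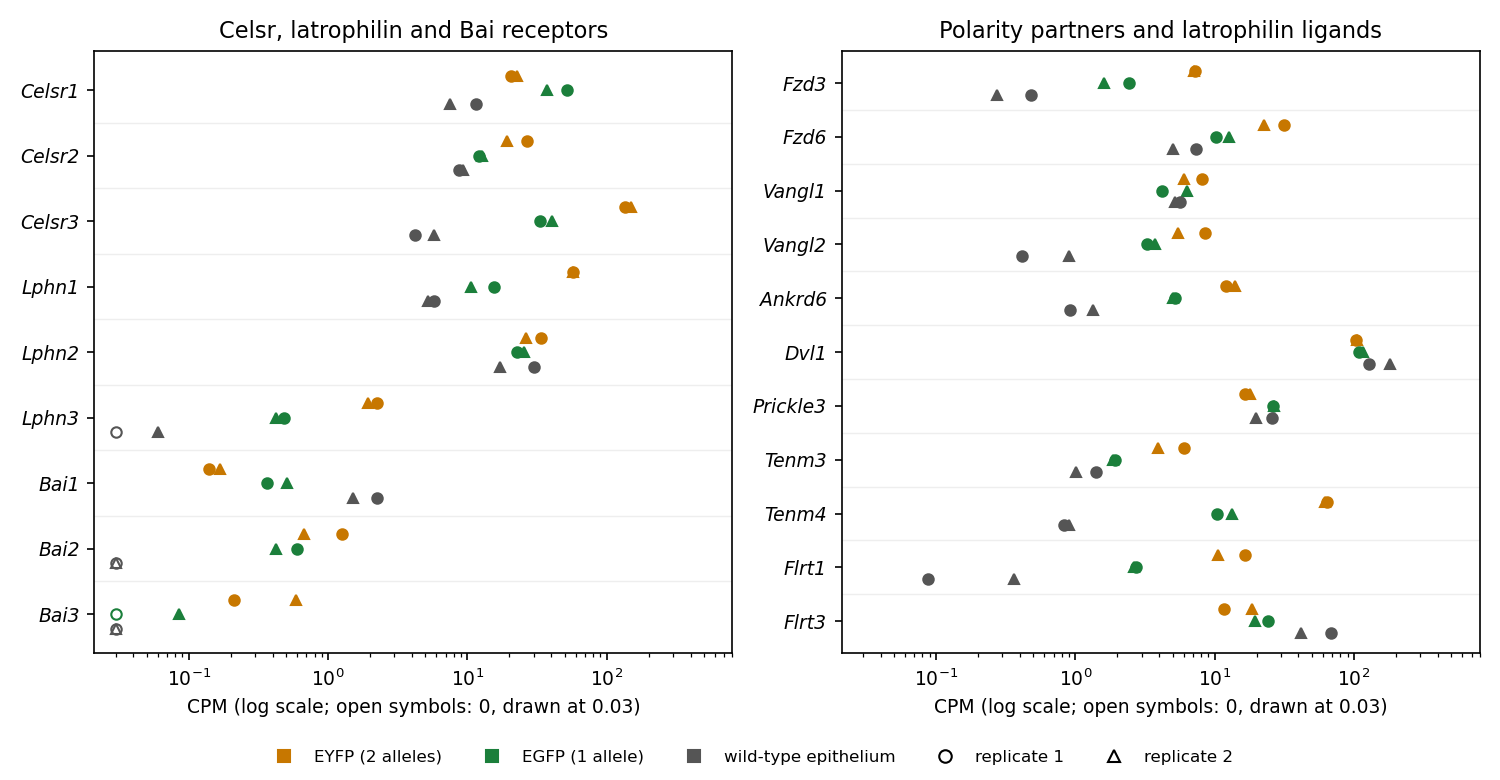
Level in CPM (horizontal log axis) in each of the 6 libraries of the flamingo, latrophilin and Bai receptors (left) and of polarity partners and latrophilin ligands (right), with circles for replicate 1, triangles for replicate 2 and open symbols at 0.03 for 0. Celsr3, Lphn1, Tenm4 and Flrt1 step down through EYFP cells, EGFP cells and wild-type epithelium, while Celsr1 has its highest values in EGFP cells and Bai1 in wild-type epithelium.

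Ligands of these receptors were followed in a list of 14 genes, of which 6 were tested. Between EYFP and EGFP cells, 3 of these were higher and 1 was lower in EYFP cells, where 16.8% of all genes tested were higher and 19.4% lower. Tenm4, a teneurin that latrophilins bind, was at 64.2 and 62.2 CPM in EYFP cells, 10.4 and 13.4 CPM in EGFP cells, and 0.832 and 0.904 CPM in wild-type epithelium (log2 fold change between EYFP and EGFP cells 2.40 ± 0.19 SE, edgeR adjusted p = 0.00025). Flrt1 and Tenm3 were also higher, by 2.35 ± 0.41 and 1.39 ± 0.42 (log2, SE, edgeR adjusted p = 0.0044 and 0.034). Flrt3, another FLRT gene, did not pass the test between EYFP and EGFP cells (log2 fold change -0.53 ± 0.31 SE). It was at 11.6 and 18.5 CPM in EYFP cells, 24.1 and 19.4 CPM in EGFP cells, and 68.6 and 42 CPM in wild-type epithelium. Against wild type it was lower in both reporter lines, and it was named after its values were seen. Tgm2, the transglutaminase that Gpr56 binds, was lower, at 26.2 and 28.2 CPM in EYFP cells against 131 and 107 CPM in EGFP cells (log2 fold change -2.13 ± 0.17 SE, edgeR adjusted p = 0.00026). The median of the 6 was 0.43, against 0.01 over all genes. Of the 10 tested planar polarity partners of flamingo cadherins, 5 were higher in EYFP cells (Fzd3, Fzd6, Ankrd6, Dvl2 and Dvl3) and Prickle3 was lower. Fzd3, a Frizzled receptor that works with Celsr3 in axon guidance, was at 7.26 and 7.16 CPM in EYFP cells, 2.41 and 1.61 CPM in EGFP cells, and 0.48 and 0.276 CPM in wild-type epithelium (log2 fold change between EYFP and EGFP cells 1.85 ± 0.40 SE, edgeR adjusted p = 0.01). Prickle3 differed by -0.62 ± 0.19 (log2, SE, edgeR adjusted p = 0.038), and the median of the 10 was 0.60. The same shares of all genes, 16.8% and 19.4%, stand beside these counts. Beside these neuronal adhesion genes, 7 neuron and glia markers summed to 97.2 and 101 CPM in EYFP cells, 23.6 and 39.4 CPM in EGFP cells, and 4.35 and 3.86 CPM in wild-type epithelium. Nearly all of that sum was Snap25, which endocrine cells also express, while the neuron and glia factors Sox10 and Hand2 were at 0 in every library.

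Of the remaining adhesion receptors, 1 was higher and 2 were lower in EYFP cells. Gpr116 (Adgrf5, at chr17:43360329-43459557), which limits surfactant in lung alveolar cells, was at 49 and 66.7 CPM in EYFP cells, 20.7 and 27.5 CPM in EGFP cells, and 0.918 and 0.851 CPM in wild-type epithelium. Its level in EYFP cells was 2.39-fold that in EGFP cells (SE 0.22 on the log2 scale, edgeR adjusted p = 0.004). Gpr116 is also known from endothelium, and of the 5 tested stromal and endothelial markers Pecam1 alone was higher, at 18.7 and 14.5 CPM in EYFP cells, 3.62 and 4.22 CPM in EGFP cells, and 1.41 and 2.29 CPM in wild-type epithelium. The defining endothelial genes Cdh5 and Kdr were at or near 0, at 0.141 CPM or less in every library. The summed level of all 10 stromal and endothelial markers was 22.9 and 21.1 CPM in EYFP cells, 18.7 and 8.37 CPM in EGFP cells, and 2.75 and 28.9 CPM in wild-type epithelium. Gpr128 (at chr16:56724609-56796006) was at 26.3 and 41.1 CPM in EYFP cells, 172 and 171 CPM in EGFP cells, and 295 and 323 CPM in wild-type epithelium. Its log2 fold change between EYFP and EGFP cells was -2.35 ± 0.22 (SE, edgeR adjusted p = 0.00043), and each group was apart from the others. Gpr126 (Adgrg6), needed for myelination by Schwann cells, shares 441 exon bases with the antisense gene Gm46212 on the opposite strand. It was at 0.423 and 0.588 CPM in EYFP cells, 2.05 and 1.35 CPM in EGFP cells, and 2.75 and 2.23 CPM in wild-type epithelium (log2 fold change between EYFP and EGFP cells -1.72 ± 0.53 SE, edgeR adjusted p = 0.037). The Gpr126 call was lost without any single library (adjusted p from 0.059 to 0.21), without the low-count filter (0.052) and with the DESeq2 Wald test (0.077). Gpr125, Gpr133, Gpr64, Gpr110 and Gpr98 were tested with no call, at log2 fold changes of -0.20, 0.16, 0.92, 0.02 and 1.77.

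Among receptors outside the adhesion family, Gpr6 had the highest level per kilobase of those that were higher, at 14 CPM per kb in EYFP cells. Gpr6, Gpr3 and Gpr12 form a group that raises cyclic AMP through Gs without an added ligand, and 1 of its 2 tested members was higher. Gpr6 (at chr10:41069977-41072290) was at 21.1 and 28.8 CPM in EYFP cells, 6.63 and 7.44 CPM in EGFP cells, and 0.499 and 0.783 CPM in wild-type epithelium. Its log2 fold change between EYFP and EGFP cells was 1.82 ± 0.26 (SE, edgeR adjusted p = 0.002). Gpr3 was at 0.916 and 2.52 CPM in EYFP cells, 0.482 and 0.422 CPM in EGFP cells, and 0.333 and 0.0603 CPM in wild-type epithelium, and did not pass the test between EYFP and EGFP cells (log2 fold change 1.90 ± 0.79 SE, edgeR adjusted p = 0.098). Gpr3 shares 111 exon bases with Cd164l2 on the opposite strand, which was itself higher in EYFP cells, and the strand setting of the counting is not known here. Gpr153, an orphan receptor, was at 14.2 and 11.4 CPM in EYFP cells, 3.62 and 4.22 CPM in EGFP cells, and 0.166 and 0.241 CPM in wild-type epithelium. It was higher in EYFP than in EGFP cells by 1.70 ± 0.30 (log2, SE, edgeR adjusted p = 0.0044), with no overlap between groups. Gpr75 was at 1.48 and 2.77 CPM in EYFP cells, 0.482 and 0.507 CPM in EGFP cells, and 0 and 0.121 CPM in wild-type epithelium (log2 fold change between EYFP and EGFP cells 2.07 ± 0.68 SE, edgeR adjusted p = 0.047). The Gpr75 call was lost with the DESeq2 Wald test (adjusted p = 0.081) and without any EYFP or EGFP library (0.072 to 0.24). Gpr75 shares 127 exon bases with Asb3 on the same strand, whose log2 fold change was -0.00 ± 0.22 (SE).

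Gpr20 had the largest difference of the members that were lower. It passed the low-count filter through its EGFP counts alone, so that lower was the only call open to it between EYFP and EGFP cells. This orphan receptor, described as signalling through Gi without a ligand, was at 0.0704 and 0.0841 CPM in EYFP cells, 8.44 and 5.15 CPM in EGFP cells, and 0.25 and 0.603 CPM in wild-type epithelium. The EYFP values rest on 2 counts against 131 in EGFP cells, so that the level in EGFP cells was 84.9-fold that in EYFP cells with an exact 95% counting interval of 23 to 708. The difference passed edgeR's test (adjusted p = 0.00079). Gpr20 was thus high in EGFP cells alone, and markers of goblet, tuft and Paneth cells were also lower in EYFP cells. Goblet cell markers (8 of 8 lower in EYFP than in EGFP cells) summed to 704 and 1843 CPM in EYFP cells, 64276 and 103486 CPM in EGFP cells, and 5625 and 7469 CPM in wild-type epithelium. Tuft cell markers (5 of 6 tested lower) summed to 6.34 and 14.9 CPM in EYFP cells, 211 and 127 CPM in EGFP cells, and 24 and 115 CPM in wild-type epithelium, with Gfi1b and Il25 at 0 in both EYFP libraries. Paneth cell markers (6 of 6 lower) summed to 407 and 202 CPM in EYFP cells, 6810 and 7606 CPM in EGFP cells, and 5865 and 7378 CPM in wild-type epithelium. The part of these cell types in the levels of Gpr20, Gpr128, Celsr1 and the other members lower in EYFP cells was not tested.

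Gpr55, a receptor for lysophosphatidylinositol, was at 9.16 and 8.24 CPM in EYFP cells, 16.9 and 19.3 CPM in EGFP cells, and 19.4 and 18 CPM in wild-type epithelium. It was lower in EYFP than in EGFP cells (log2 fold change -1.05 ± 0.20 SE, edgeR adjusted p = 0.0058), while the EGFP and wild-type values overlapped. Gpr55 shares 71 exon bases with 4933407L21Rik on the opposite strand, a gene that was higher in EYFP cells.

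Of the 7 tested members listed as organelle or atypical receptors, 2 were higher and 2 lower in EYFP cells. Of all genes, 16.8% were higher and 19.4% lower, and the median log2 fold change of the 7 was -0.33. Gpr89, known as the Golgi pH regulator, was at 29.3 and 28.9 CPM in EYFP cells, 49.5 and 45.9 CPM in EGFP cells, and 106 and 128 CPM in wild-type epithelium (log2 fold change between EYFP and EGFP cells -0.71 ± 0.15 SE, edgeR adjusted p = 0.0087). Gpr108, a protein of the Golgi, was at 70.7 and 70.9 CPM in EYFP cells, 100 and 115 CPM in EGFP cells, and 58.7 and 59.2 CPM in wild-type epithelium (log2 fold change between EYFP and EGFP cells -0.60 ± 0.13 SE, edgeR adjusted p = 0.011). Its relative Gpr107 was at 63.7 and 60 CPM in EYFP cells and 76.7 and 79.3 CPM in EGFP cells, which did not pass the test (log2 fold change -0.33 ± 0.16 SE). Gpr155, a lysosomal cholesterol sensor, was at 15.7 and 20.1 CPM in EYFP cells, 8.2 and 10.4 CPM in EGFP cells, and 83.2 and 95.5 CPM in wild-type epithelium. It was higher in EYFP than in EGFP cells (log2 fold change 0.93 ± 0.20 SE, edgeR adjusted p = 0.01), yet both reporter groups were far below wild type. Gpr137b, a lysosomal membrane protein, was at 2.47 and 2.21 CPM in EYFP cells, 0.448 and 1.02 CPM in EGFP cells, and 0.232 and 0.321 CPM in wild-type epithelium, on the edge of the threshold (log2 fold change between EYFP and EGFP cells 1.58 ± 0.53 SE, edgeR adjusted p = 0.05 after rounding; log2 fold change 2.24 without EGFP replicate 2). Its near copy Gpr137b-ps was higher too, at 7.39 and 6.36 CPM in EYFP cells against 3.41 and 2.1 CPM in EGFP cells, and the division of reads between these copies is uncertain. Without single libraries the calls were lost for Gpr89 (either EYFP replicate or EGFP replicate 1, adjusted p from 0.052 to 0.062), Gpr108 (either EYFP replicate or EGFP replicate 2, 0.063 to 0.068), Gpr155 (EYFP replicate 2 or EGFP replicate 1, 0.058 and 0.065) and Gpr137b (any library, 0.076 to 0.23). The Gpr137b call was also lost without the low-count filter (adjusted p = 0.076) and with the DESeq2 Wald test (0.1).

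**Figure D4:**
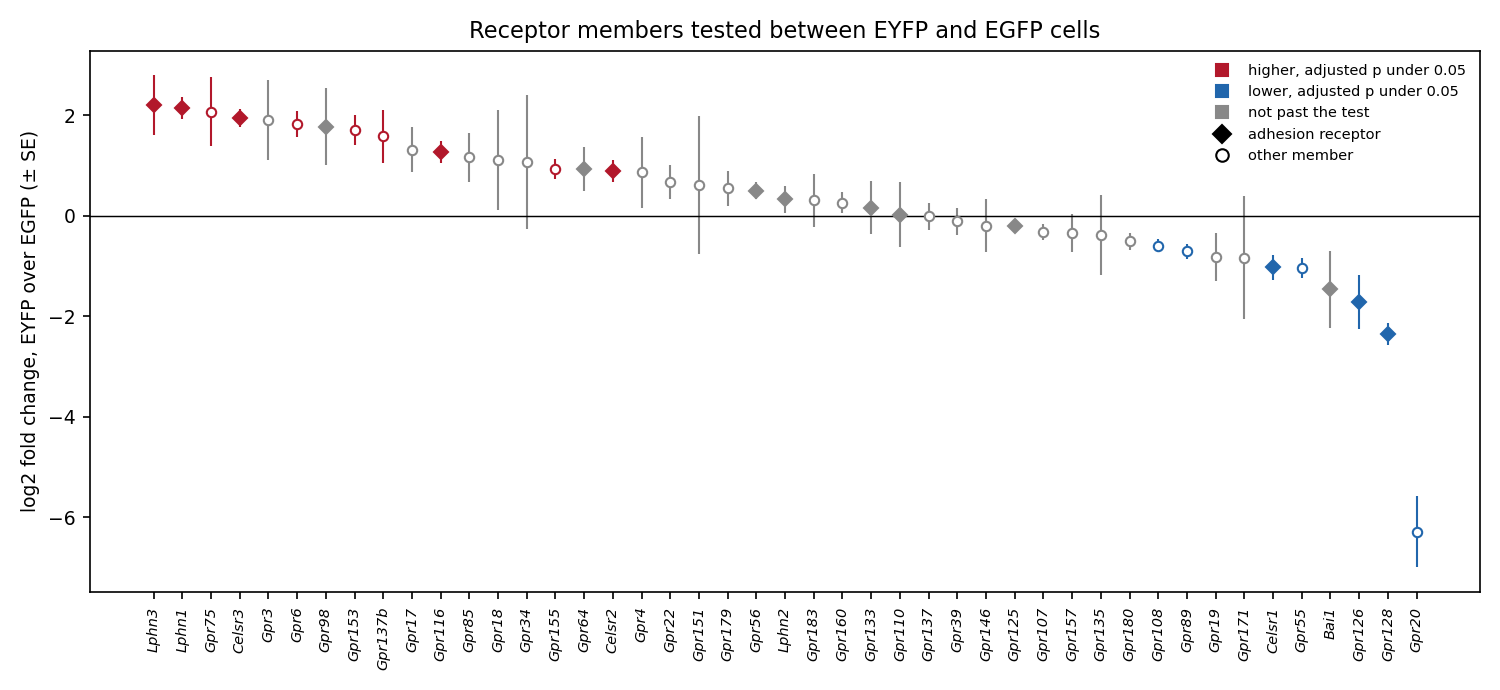
Log2 fold change of EYFP over EGFP cells with its SE (vertical axis) for tested members, in order of size, with diamonds for adhesion receptors and open circles for other members, red for higher, blue for lower and grey for no call at an adjusted p of 0.05. Gpr65 and Gpr132, with 0 counts in both EGFP libraries, are not drawn. Values run from 2.20 for Lphn3 to -6.29 for Gpr20, which rests on 2 EYFP counts.

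Kinases and arrestins, which switch receptors of this superfamily off, changed in both directions between EYFP and EGFP cells, with 4 of 12 higher, 4 lower and a median of 0.16. Of all genes tested, 16.8% were higher and 19.4% lower. Grk5 was higher, at 31.3 and 36.3 CPM in EYFP cells against 12.2 and 16.1 CPM in EGFP cells (log2 fold change 1.25 ± 0.25 SE, edgeR adjusted p = 0.0069). Grk6 was lower, at 63 and 54.5 CPM in EYFP cells against 119 and 111 CPM in EGFP cells (log2 fold change -0.97 ± 0.14 SE, edgeR adjusted p = 0.0019). Of the arrestins, Arrb2 was higher (0.63 ± 0.20) and Arrb1 lower (-0.92 ± 0.17) in EYFP cells on the log2 scale. These arrestin genes were named after their values were seen.

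Of the 4 proton-sensing receptors, Gpr132 alone was past the test between EYFP and EGFP cells, with 12 counts in EYFP cells and 0 in EGFP cells. Against a floor of 3 counts over the EGFP group it was at least 3.09-fold higher in EYFP cells (edgeR adjusted p = 0.04), a bound that was 1.81 without EGFP replicate 1 and 1.27 without EGFP replicate 2. The call was lost without any EYFP or EGFP library or WT replicate 1 (adjusted p from 0.052 to 0.15). In the fit of the 4 EYFP and EGFP libraries alone, Gpr132 was too low to be tested. It entered the main test through its wild-type counts of 66 and 48. Gpr132 was at 0.634 and 0.252 CPM in the EYFP libraries, and Gpr65 at 0.916 and 0.0841 CPM. EYFP replicate 1, with the higher value of both, also held the macrophage genes Lyz2 at 206 CPM and Csf1r at 19.3 CPM, against 0.199 and 0 CPM in EYFP replicate 2. EGFP replicate 2, with no count of Gpr132 or Gpr65, held Lyz2 at 29.3 CPM and Csf1r at 3.3 CPM. In wild-type epithelium Gpr132 was at 5.49 and 2.89 CPM beside Lyz2 at 2.58 and 2.66 CPM. The part of such cells in these values was not tested.

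Against wild-type epithelium, EGFP cells had more RNA for several adhesion receptors and for Gpr6, Gpr20, Gpr85 and Gpr153, and less for Gpr171, Gpr18, Gpr34, Gpr132 and Gpr65. Of the 49 tested members, 15 were higher in EGFP cells, where 19.6% of all genes were, and 17 were lower, where 21.9% of all genes were. The shares of the tested members were 30.6% and 34.7%, with a median log2 fold change of -0.04, against 0.00 over all genes. Without EGFP replicate 1 the members lower came to 10. In EYFP cells 18 members were higher than in wild-type epithelium, against 27.1% of all genes, and 20 were lower, against 33.5% of all genes. Those made up 36.7% and 40.8% of the tested members, with a median of -0.34, against -0.12 over all genes. Both comparisons use the same wild-type libraries, so their values are given side by side and are not independent. All EGFP values lay above both wild-type values in 22 tested members and below them in 23, as they did in 35% and 36.2% of all genes tested. For EYFP cells the numbers were 21 above and 23 below, against 37% and 45% of all genes.

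Adhesion receptors were more often higher than lower against wild type, with 7 higher and 3 lower of 17 in EGFP cells and 8 higher and 4 lower in EYFP cells. The other receptors were more often lower, with 8 higher and 14 lower of 32 in EGFP cells and 10 higher and 16 lower in EYFP cells. The difference between these divisions was not tested. Over all genes tested, 19.6% were higher and 21.9% lower in EGFP cells, and 27.1% and 33.5% in EYFP cells. Gpr171, Gpr18, Gpr34, Gpr132, Gpr65, Gpr151 and Bai1 passed the low-count filter through their wild-type counts. Lphn3, Gpr75, Gpr85, Gpr6, Gpr153, Gpr116, Gpr64, Gpr179, Gpr3, Gpr4, Gpr137b and Gpr183 passed it through counts in the reporter lines. The direction of such members against wild type was thus largely fixed by the filter, and the divisions above include them. Gpr20 passed it through its EGFP counts alone, so that higher was the only call open to it between EGFP cells and wild type. Gpr116 differed from wild type by 6.03 ± 0.29 in EYFP cells and by 4.77 ± 0.29 in EGFP cells (log2, SE, edgeR adjusted p = 5.4e-06 and 3.3e-05). Celsr3 differed by 4.82 ± 0.21 in EYFP cells and 2.87 ± 0.20 in EGFP cells, and Lphn1 by 3.40 ± 0.23 and 1.25 ± 0.22 (log2, SE). Gpr56 was higher in both, by 1.81 ± 0.18 in EYFP cells and 1.32 ± 0.18 in EGFP cells (log2, SE). Gpr64 (Adgrg2, known from epididymis epithelium) was higher in both, at 2.68 and 2.44 CPM in EYFP cells, 1.45 and 1.27 CPM in EGFP cells, and 0.333 and 0.363 CPM in wild-type epithelium. Lphn3 had 1 wild-type count, which gives a ratio of 60.3 for EYFP cells (95% counting interval 10.4 to 2425) and of 12.8 for EGFP cells (1.77 to 561). Without WT replicate 1 these ratios were 35 and 7.42, and without WT replicate 2 they were at least 8.44 and at least 1.79. In the fit of the EGFP and wild-type libraries alone, Lphn3 was too low to be tested. Its call between EGFP cells and wild type was lost without any single library (adjusted p from 0.054 to 0.1) and with the DESeq2 Wald test (0.063). Bai1 was lower in both, at log2 fold changes of -3.52 ± 0.64 in EYFP cells and -2.05 ± 0.57 in EGFP cells (SE), but in EGFP cells the call was lost without any EGFP or WT library (adjusted p from 0.057 to 0.16) and with the DESeq2 Wald test (0.087). The Gpr128 difference between EGFP cells and wild type (log2 fold change -0.85 ± 0.21 SE, edgeR adjusted p = 0.012) was lost without either EGFP replicate or WT replicate 2 (0.06 to 0.11).

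Outside the adhesion family, Gpr6, Gpr153, Gpr85 and Gpr179 were higher than wild type in both reporter lines. These members passed the low-count filter through counts in the reporter lines, so that lower was not a call open to them. Gpr85, the most conserved of the SREB receptors of brain, was at 4.37 and 3.36 CPM in EYFP cells, 1.57 and 1.86 CPM in EGFP cells, and 0.0832 and 0 CPM in wild-type epithelium. The wild-type value was 1 count, so that Gpr85 in EYFP cells was 112-fold wild type (95% counting interval 19.6 to 4460) and in EGFP cells 49.7-fold (8.36 to 2020). These ratios were at least 21.6 and at least 9.62 without WT replicate 1, and 47 and 20.9 without WT replicate 2. The other SREB receptors, Gpr27 and Gpr173, were too low to test. Gpr6 differed from wild type by 5.22 ± 0.33 in EYFP cells and 3.40 ± 0.34 in EGFP cells, and Gpr153 by 5.88 ± 0.41 and 4.17 ± 0.43 (log2, SE). Gpr20 was higher than wild type in EGFP cells (log2 fold change 3.90 ± 0.55 SE, edgeR adjusted p = 0.001; 4.70 without WT replicate 2). In EYFP cells Gpr20 had 2 counts against 13 in wild-type epithelium, a wild-type level 5.93-fold that of EYFP cells (95% counting interval 1.34 to 54.1). The log2 fold change was -2.38 with all libraries and -1.58 without WT replicate 2. That call (adjusted p = 0.045) was lost without any library other than WT replicate 1 (0.057 to 0.26), with DESeq2 size factors (0.054) and with the DESeq2 Wald test (0.092). Gpr179, an orphan class C receptor of retinal bipolar cells, was at 5.78 and 5.04 CPM in EYFP cells, 3.25 and 4.14 CPM in EGFP cells, and 0.749 and 0.723 CPM in wild-type epithelium. It was the single tested member of 3 class C orphans, and it was named after its values were seen.

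Gpr171, Gpr18 and Gpr34, members known from leukocytes, were highest in wild-type epithelium. They belong to a list of 12 members known for lipid or sterol ligands or from leukocytes, of which 6 were tested. Gpr171, Gpr18 and Gpr34 passed the low-count filter through their wild-type counts, so that lower was the only call open to them. In EYFP cells 1 of the 6 was higher than wild type and 4 were lower, with a median log2 fold change of -2.63, and in EGFP cells 0 were higher and 4 lower, with a median of -3.49. The shares of all genes were 27.1% higher and 33.5% lower in EYFP cells, and 19.6% and 21.9% in EGFP cells. Gpr171, an orphan receptor of T cells, was at 0.0704 and 0.0841 CPM in EYFP cells, 0 and 0.253 CPM in EGFP cells, and 5.83 and 4.1 CPM in wild-type epithelium. From 2 counts in EYFP cells and 3 in EGFP cells, the wild-type level was 62.9-fold that of EYFP cells (95% counting interval 17.1 to 525) and 32.4-fold that of EGFP cells (10.8 to 159). The EGFP ratio was 19 without EGFP replicate 1 and at least 13.3 without EGFP replicate 2. Gpr18, a receptor of lymphocytes, was at 0.352 and 0.0841 CPM in EYFP cells, 0.121 and 0.0845 CPM in EGFP cells, and 4.24 and 4.16 CPM in wild-type epithelium. Gpr34, a lysophosphatidylserine receptor of myeloid cells, was at 0.141 and 0.0841 CPM in EYFP cells, 0 and 0.0845 CPM in EGFP cells, and 1.75 and 2.95 CPM in wild-type epithelium. In each of these the wild-type values were clear of both reporter lines. The wild-type level of Gpr34 was 21.3-fold that of EYFP cells (95% counting interval 6.99 to 106) and 49.3-fold that of EGFP cells (8.56 to 1973), and the EGFP ratio was 29 without EGFP replicate 1 and at least 6.77 without EGFP replicate 2. The proton sensors Gpr132 and Gpr65 had 0 counts in EGFP cells, so that Gpr132 was at least 26.7-fold lower and Gpr65 at least 17.1-fold lower in EGFP cells than in wild-type epithelium. Those bounds were 15.7 and 10.1 without EGFP replicate 1, and 11 and 7.06 without EGFP replicate 2. Gpr4, another proton sensor, was higher in EYFP cells than in wild-type epithelium (log2 fold change 2.63 ± 0.81 SE, edgeR adjusted p = 0.023). It had 21 and 9 counts in EYFP cells and 2 and 3 in wild-type epithelium. Gpr4 passed the low-count filter through counts in the reporter lines, and Gpr132 and Gpr65 through their wild-type counts. Their opposite directions were thus largely fixed by the filter. Without EYFP replicate 1 the log2 fold change of Gpr65 in EYFP cells against wild type was -4.76 (-2.27 with all libraries), that of Gpr18 -5.48 (-4.15) and that of Gpr132 -3.99 (-3.17). Without EYFP replicate 2 it was -3.54 for Gpr18 and -1.47 for Gpr65. The Gpr65 call in EYFP cells (adjusted p = 0.046) was lost without any other library (0.051 to 0.15), with DESeq2 size factors (0.058), with the DESeq2 Wald test (0.12) and in the fit of 4 libraries (0.056).

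Leukocyte markers were lower in the reporter lines as well. Of 10 tested, 6 were lower than wild type in EYFP cells and the same 6 in EGFP cells: Ptprc, Cd3e, Cd3g, Cd8a, Itgae and Nkg7. Ptprc, the pan-leukocyte gene CD45, was at 6.13 and 1.68 CPM in EYFP cells, 1.21 and 3.13 CPM in EGFP cells, and 47.5 and 56.5 CPM in wild-type epithelium. The summed level of all 13 leukocyte markers was 246 and 12 CPM in EYFP cells, 11.2 and 48.7 CPM in EGFP cells, and 214 and 259 CPM in wild-type epithelium, with most of EYFP replicate 1 made up by Lyz2. The B cell gene Cd79a was at 0 in both EGFP libraries. The part of leukocytes in the level of these receptors was not tested. Gpr183, an oxysterol receptor of lymphocytes, did not follow that order, at 1.62 and 1.51 CPM in EYFP cells, 1.57 and 1.01 CPM in EGFP cells, and 0.583 and 0.301 CPM in wild-type epithelium. It was higher than wild type in EYFP cells (log2 fold change 1.85 ± 0.57 SE, edgeR adjusted p = 0.023) and did not pass in EGFP cells (1.55 ± 0.59, adjusted p = 0.07). Gpr183 passed the low-count filter through counts in the reporter lines, so that lower was not open to it, and it was named after its values were seen.

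**Figure D5:**
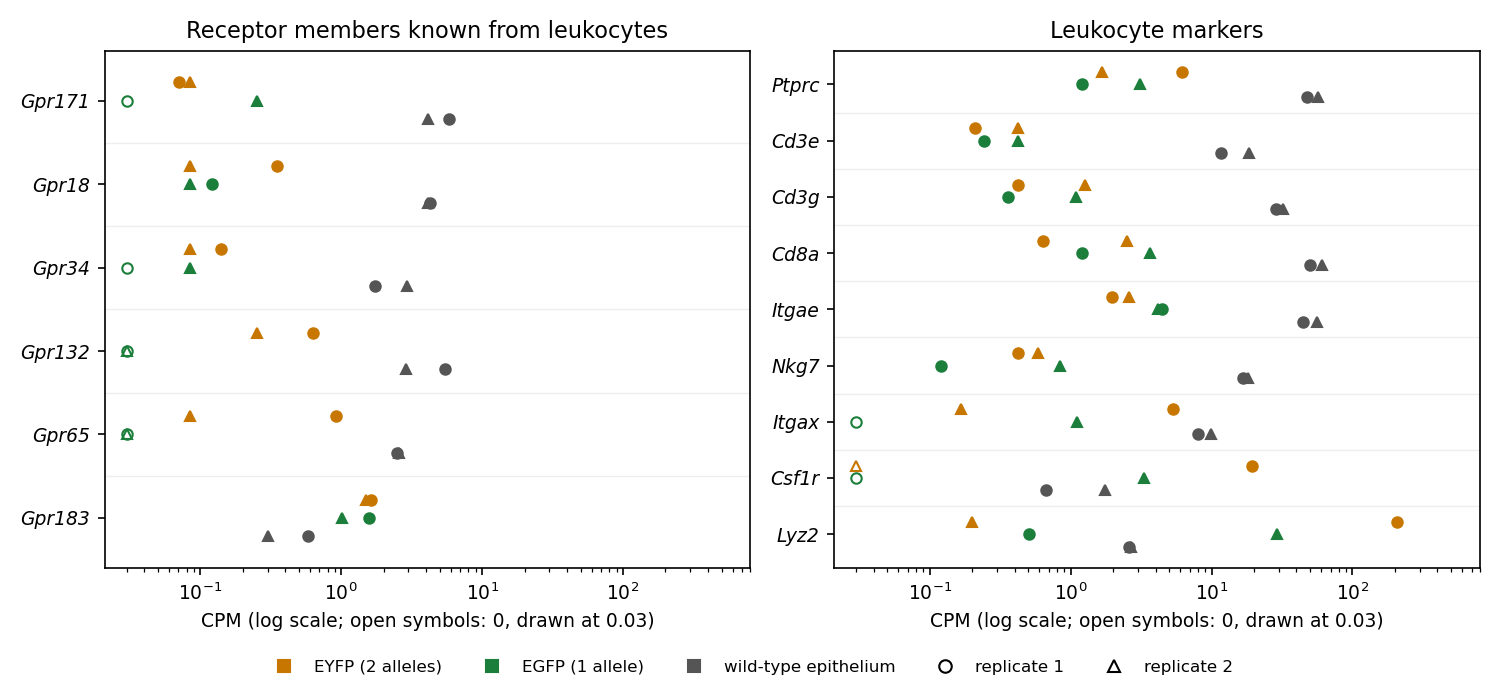
Level in CPM (horizontal log axis) in each of the 6 libraries of 6 receptor members known from leukocytes (left) and of 9 leukocyte markers (right), with circles for replicate 1, triangles for replicate 2 and open symbols at 0.03 for 0. Wild-type values lie to the right of both reporter lines for 5 of the 6 receptors, while Gpr183 has its lowest values in wild-type epithelium and Lyz2 its highest, 206 CPM, in EYFP replicate 1.

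Several abundant members were also lower in the reporter lines than in wild-type epithelium. Gpr155 differed by a log2 fold change of -2.32 ± 0.19 in EYFP cells and -3.26 ± 0.21 in EGFP cells (SE, edgeR adjusted p = 4.1e-05 and 3.7e-05). Gpr128 fell by 3.20 on the log2 scale in EYFP cells against wild type (SE 0.22). Gpr39, a zinc-sensing receptor and the single tested member of the peptide or ion list, was at 12.8 and 15.8 CPM in EYFP cells, 12.1 and 18.5 CPM in EGFP cells, and 41.5 and 58.2 CPM in wild-type epithelium. It shares 1202 exon bases with Lypd1 on the opposite strand, which was higher in both reporter lines, and it was named after its values were seen. Gpr89 was lower in both, at log2 fold changes of -2.01 ± 0.15 in EYFP cells and -1.30 ± 0.15 in EGFP cells (SE). It shares 817 exon bases with Pdzk1 on the opposite strand, a brush border gene at 16.6 and 34.2 CPM in EYFP cells, 16.5 and 17.8 CPM in EGFP cells, and 255 and 515 CPM in wild-type epithelium. Without a known strand setting, reads of Gpr89 and Pdzk1 cannot be told apart there. Enterocyte markers (8 of 8 lower in both reporter lines) summed to 1328 and 2008 CPM in EYFP cells, 1526 and 1958 CPM in EGFP cells, and 24889 and 40394 CPM in wild-type epithelium, and their part in these levels was not tested. Gpr151, a receptor of habenular neurons, was lower than wild type in both reporter lines on 3 EGFP counts, the wild-type level being 13.8-fold that of EGFP cells (95% counting interval 4.51 to 69). Its call in EGFP cells was lost without any EGFP or WT library (adjusted p from 0.069 to 0.18), and that in EYFP cells without EYFP replicate 1, EGFP replicate 1 or either WT library (0.058 to 0.098) and with the DESeq2 Wald test (0.06). The ratio was 24.4 without EGFP replicate 1 and 8.56 without EGFP replicate 2, and the log2 fold change in EYFP cells (-3.06 with all libraries) became -1.99 when EYFP replicate 1 was left out and -7.69 when EYFP replicate 2 was. Gpr107 was lower in EYFP cells, at -0.89 ± 0.16 (log2, SE), and its smaller difference in EGFP cells (-0.55 ± 0.16, edgeR adjusted p = 0.027) was lost without either EGFP replicate or WT replicate 2 (0.1 to 0.16) and in the fit of 4 libraries (0.072). Gpr125 (Adgra3), a broadly expressed adhesion receptor, was close in all 6 libraries, at 48.2 and 46.4 CPM in EYFP cells, 58.6 and 50.5 CPM in EGFP cells, and 59.9 and 59.7 CPM in wild-type epithelium.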

How the data were processed

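RNA was measured in 6 libraries, 2 per group. TruSeq libraries of total RNA, from an RNeasy Micro kit, were read once per fragment over 50 bases with a HiSeq2000, per the labels' protocols. Per the submitters' processing notes, the tools were RSEM 1.3.1, Bowtie2, FastQC 0.11.8 and DESeq2 1.26.0 and the build was mm10, with no settings or strand stated. The authors deposited an estimated count per gene and library, in which reads matching several genes are divided. The EYFP columns carry EGFP together with addon in their names, and were matched to the titles that hold that word. The authors' table of comparisons was not used.

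Estimated counts were rounded. edgeR 4.0.16 (R 4.3.3) with TMM scaling and filterByExpr kept 13935 genes (58.4%), tested with a robust quasi-likelihood F test in 1 model of 3 group means (3 residual degrees of freedom, biological coefficient of variation 19.8%), with Benjamini-Hochberg adjustment over all of them at 0.05. The SE was derived from F. CPM are counts over TMM-scaled totals. Transcript lengths (GENCODE M21), coordinates and promoters (RefSeq, GRCm38.p6) were joined by RefSeq accession; 94 members had a record and 93 a length. A group at 0 was given a floor of 3 counts, and one with 1 to 3 counts a ratio with an exact 95% interval (Clopper-Pearson). The test was tried on simulated counts. Some genes are not reported here.

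The members and lists were chosen with earlier results of these data known. The text names every member past the test between EYFP and EGFP cells, the 6 higher and 6 lower with the largest change against wild type in each reporter line, the 5 of highest mean CPM per group, and members of the adhesion, proton-sensing, SREB and Gs lists. The alternatives were DESeq2 size factors, no filter, the DESeq2 Wald test (1.42.0), a fit of 4 libraries, a minimum fold of 2, a block for the replicate number, and the loss of each library in turn, where a lone library was assumed to vary like the other groups.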

Additional observations from a re-analysis of the deposited data

How the results depend on the processing

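The alternatives were followed gene by gene for members named by their calls or levels, in the comparisons where they were called. None of these reversed its direction. Of 745 values for 68 results, 655 stayed on the same side of the threshold, 90 lost it, and 50 results kept it throughout. Gpr3, Gpr4, Gpr39, Gpr64, Gpr179 and Gpr183, named from a list or after their values were seen, were not among them. Leaving out single libraries took the members higher between EYFP and EGFP cells (11) to between 5 and 11 and those lower (7) to between 3 and 7. Between EGFP cells and wild type, those higher (15) came to between 12 and 15 and those lower (17) to between 10 and 17. Between EYFP cells and wild type, those higher (18) came to between 16 and 21 and those lower (20) to between 15 and 18. Fewer samples in the fit are part of these changes by construction. DESeq2 size factors gave 13 higher and 7 lower between EYFP and EGFP cells, no filter 14 and 6, the DESeq2 Wald test 10 and 6, the 4 libraries 10 and 8, and a fold of at least 2 gave 9 and 5. DESeq2 size factors moved the median log2 fold change of all genes by 0.11 between EYFP cells and wild type, and by 0.07 and 0.04 in the other comparisons. With the replicate number as a block the counts were 12 higher and 7 lower between EYFP and EGFP cells, 15 and 17 between EGFP cells and wild type, and 18 and 19 between EYFP cells and wild type. The calls of Gpr137b between EYFP and EGFP cells (adjusted p = 0.061) and of Gpr20 between EYFP cells and wild type (0.06) were lost under it. Same-numbered libraries deviated together by correlations of 0.0224, 0.0964 and 0.0143, so the numbers were not taken as pairs. Depth limits the members under 1 CPM most, where a level rests on a few counts per library.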

Other observations

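Among the 46 members too low to test, several had nearly all their counts in EYFP cells, and these are given as counts chosen after their values were seen. Gpr97 (Adgrg3), an adhesion receptor of granulocytes, had 7 and 9 counts in EYFP cells, 0 and 0 in EGFP cells, and 0 and 2 in wild-type epithelium. Against a floor of 3 counts over the EGFP group that was at least 4.11-fold higher in EYFP cells, a bound that was 2.42 without EGFP replicate 1 and 1.7 without EGFP replicate 2. Gpr27, an SREB receptor, had 15 and 4 counts in EYFP cells, 1 and 2 in EGFP cells, and 0 and 0 in wild-type epithelium, a ratio of 4.89 between EYFP and EGFP cells (95% counting interval 1.44 to 25.8). Without EYFP replicate 1 that ratio was 2.26, with an interval of 0.382 to 15.4 that spans 1, and without EGFP replicate 2 it was 6.04 (0.96 to 251). Gpr31b had 15 counts in EYFP replicate 1 and 0 in EYFP replicate 2, so that its total rests on 1 library, the library that also held 206 CPM of Lyz2. Gpr174, a lysophosphatidylserine receptor of lymphocytes, had 1 count in EYFP cells, 0 in EGFP cells and 12 in wild-type epithelium.

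The untested adhesion receptors Gpr111, Gpr115 and Gpr123 had at most 2 counts in any library. Gpr124 (Adgra2), a Wnt7 coreceptor of brain endothelium, had 5 and 5 counts in EYFP cells, 6 and 7 in EGFP cells, and 4 and 6 in wild-type epithelium. Gpr182, a chemokine scavenger of endothelium that is also known from intestinal progenitors, had 9 and 8 counts in EYFP cells, 5 and 5 in EGFP cells, and 3 and 13 in wild-type epithelium.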
